A study of Mus musculus with 24 samples.

Results

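The insulin-like growth factor (IGF) system of the mouse visual cortex is described here by 10 genes, taken by their symbols from the 55414 genes counted: the ligands Igf1 and Igf2, the receptors Igf1r, Igf2r and Insr, the binding proteins Igfbp2, Igfbp4 and Igfbp5, and the receptor substrates Irs1 and Irs2. All 10 genes passed the filter on low counts, as did 14464 genes in all. RNA was sequenced from 24 male C57BL/6J mice aged 8 weeks, with 1 library per mouse and 6 mice per group. The mice had been kept on a reversed light cycle and were studied during their dark phase. The dark group received PBS and stayed in darkness, and the light group received PBS and was placed in light. The psilocybin-dark and psilocybin-light groups received 5 mg/kg psilocybin, a serotonergic psychedelic, by intraperitoneal injection, and then stayed in darkness or were placed in light. Tissue was taken after 2.5 h in all groups, so only an early time point was sampled, in males of a single strain and after a single dose.

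IGF1 and IGF2 are secreted growth factors that resemble insulin. They act on IGF1R, a receptor tyrosine kinase, and insulin acts on the closely related insulin receptor, after which IRS1 and IRS2 are phosphorylated and recruit PI3 kinase, which activates AKT and mTOR and holds FOXO transcription factors out of the nucleus. IGF2R carries IGF2 to lysosomes rather than signalling as a kinase, and IGF binding proteins hold the ligands outside the cell until proteases such as PAPPA and PAPPA2 release them. In the visual cortex, IGF1 is known as a factor whose expression depends on sensory experience, with interneurons that express vasoactive intestinal peptide (Vip) among its sources.

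The light exposure of the mice is given in opposite ways by both sources. The groups used here follow the headings of the study's supplementary count table. The sample labels give the same drug but the opposite light exposure for all 24 libraries. Under the labels, each difference between light and darkness would change its sign, and the effect of psilocybin in darkness and that in light would exchange places.

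The libraries held between 13552516 and 17906994 counts. The early-response genes Npas4, Fos, Fosb, Egr1 and Arc, which neurons switch on when active, were all 5 higher in the light, psilocybin-dark and psilocybin-light groups than in the dark group. Dark mice 1 and 6, psilocybin-dark mouse 12 and light mouse 18 stood apart, with sums of 6 cerebellar marker genes of 28169, 60279, 27261 and 17020 normalized counts, against at most 1646 in the 20 other mice. Sums of 8 hippocampal markers were 1068 to 5518 in dark mice and 399 to 756 in all the other mice, and without Fibcd1 they were 496 to 1367 against 270 to 511, with a small overlap. Of the 6 hippocampal markers tested, 4, 2 and 5 were lower in the light, psilocybin-dark and psilocybin-light groups than in the dark group and none was higher. The dark group therefore differed from the other 3 groups in these transcripts as well as in treatment, and both cannot be told apart. The mean log2 level of the 6 hippocampal markers tested was used as a covariate. For the 10 genes its result is given below wherever it removed a call. The sums of 8 markers separate the dark mice from all others. With the covariate, edgeR called 0 of 14464 genes in psilocybin-dark against dark mice (1412 at an unadjusted p under 0.05), where 24.7% were called without it. In bulk tissue, fewer cells of a type and less RNA per cell cannot be told apart either.

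Of the 10 genes, 6 differed between at least 2 groups, and Igf1, Igf2, Igfbp2 and Irs2 in no comparison. Of all genes tested, 47.9% were called in at least 1 of the 6 comparisons of 2 groups. Igfbp4 was higher in the light, psilocybin-dark and psilocybin-light groups than in the dark group, by 1.96-fold, 1.74-fold and 2.26-fold. Igf2r and Irs1 were lower in both groups exposed to light than in the dark group. Igf1r and Insr were lower in the psilocybin-light group than in either group kept in darkness, and so was Irs1. A gene is called higher or lower here when its p-value from edgeR, adjusted over all genes tested, was under 0.05.

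Against the dark group, 3 of the 10 genes were called in the light group, 1 higher and 2 lower, where 31.9% of all genes were called (15.4% higher and 16.5% lower). In the psilocybin-dark group 1 gene was called, Igfbp4, where 11.9% of all genes were called higher and 24.7% in either direction. In the psilocybin-light group 6 genes were called, 1 higher and 5 lower, where 38.4% of all genes were called, 17.4% higher and 21.0% lower. Set against these shares, the number of IGF genes called is not out of the ordinary in the light and psilocybin-dark groups. Between the psilocybin-light and psilocybin-dark groups 3 genes were called, all lower, where 6.38% of all genes were called and 3.78% were lower. The median log2 fold change of the 10 genes in this comparison was -0.29, beside -0.01 over all genes tested.

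No gene of the 10 was called between the psilocybin-light and light groups, where 0.608% of all genes were called, although 2 had an unadjusted edgeR p under 0.05 and DESeq2 called 1, Igf1r. None was called between the psilocybin-dark and light groups, where 0.456% of all genes were called, although 4 had an unadjusted edgeR p under 0.05 and DESeq2 called 2, Insr and Irs1. The interaction is the effect of psilocybin in light less its effect in darkness. It was called for 1 gene of the 10, Igf1r, and for 8.75% of all genes.

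**Figure D1:**
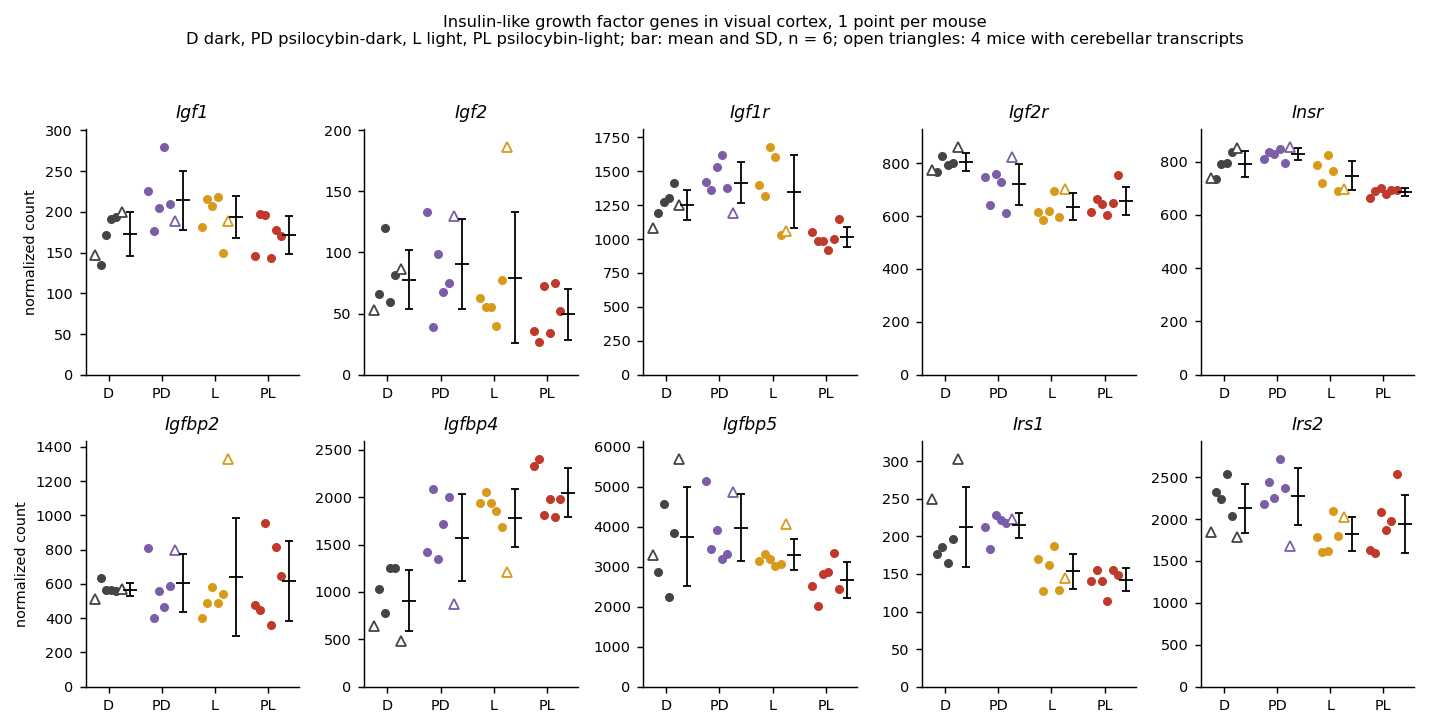
Normalized counts (counts scaled to a common library size, vertical axes starting at 0) of the 10 genes, 1 point per mouse, with the mean and SD of each group of 6 beside the points. Open triangles mark the 4 mice with cerebellar transcripts. Igfbp4 was lowest in the dark group, and all 6 psilocybin-light mice lay below all 6 psilocybin-dark mice for Igf1r, Insr and Irs1.

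On the scale of CPM per kilobase of exon, which allows for library size and exon length, the binding proteins and Irs2 were the most abundant of the 10 transcripts. In the dark group the level was 38.9 ± 12.9 (SD, n = 6) for Igfbp5, 18.0 ± 2.46 for Irs2, 17.0 ± 1.17 for Igfbp2 and 12.8 ± 4.55 for Igfbp4. The receptors followed, with 5.35 ± 0.230 for Igf2r, 3.95 ± 0.352 for Igf1r and 3.58 ± 0.216 for Insr. The least abundant were Irs1 at 1.42 ± 0.354, Igf1 at 1.05 ± 0.163 and Igf2 at 0.786 ± 0.245. Neighbours within Irs2, Igfbp2 and Igfbp4, within Igf1r and Insr, and within Irs1, Igf1 and Igf2 were closer to each other than the sum of their SDs, and Igfbp5 and Igf2r stood above the next genes in the order by more than that. In the psilocybin-light group Igfbp4, at 28.9 ± 3.64, stood above Irs2, at 16.4 ± 2.93, and beside Igfbp5, at 27.7 ± 4.70.

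Igf1 lies on chromosome 10 from 87693642 to 87772904 (GRCm39, plus strand). It had 134 to 200 normalized counts in dark mice, with a median of 181, and 150 to 219 in light mice, with a median of 198. In psilocybin-dark mice it had 177 to 279, with a median of 207, and in psilocybin-light mice 143 to 198, with a median of 174. The ranges of all 4 groups overlapped, and the light and psilocybin-dark medians were the higher ones.

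The largest difference of Igf1 from the dark group was the 1.24-fold higher mean in psilocybin-dark mice, with a log2 fold change of 0.31 ± 0.12 (SE) and an edgeR adjusted p of 0.066. Between psilocybin-light and psilocybin-dark mice the log2 fold change was -0.32 ± 0.12, with an adjusted p of 0.13. The interaction was -0.48 ± 0.17 with an adjusted p of 0.082, and it passed the threshold, at -0.52 and 0.047, without the 4 mice with cerebellar transcripts. Vip, which marks the interneurons named above, was higher in the light (1.11 ± 0.26), psilocybin-dark (1.12 ± 0.26) and psilocybin-light groups (1.20 ± 0.26) than in the dark group. It was lowest, at 116 and 222 normalized counts, in dark mice 1 and 6. Of 5 markers of these interneurons, 2 were called higher in each of the 3 groups, and 1 was called lower in the psilocybin-light group. Tac2 and Crh also had higher means in the 3 groups. Calb2 had lower means, as did Htr3a, with 179 normalized counts in dark mice and 124, 123 and 129 in light, psilocybin-dark and psilocybin-light mice. Over the 24 mice the Pearson correlation of Igf1 with Vip was 0.30, and 0.19 within groups, a description over libraries that share groups and depth. The sum of 5 markers of Vip interneurons is not compared with Igf1 here, since Calb2, 1 of the 5, had 1839 to 4813 normalized counts in the 4 mice with cerebellar transcripts and at most 900.3 in the 20 others. The genes whose log2 level followed Igf1 most closely over the 24 libraries were Purb, Tcof1 and Arfgef3, with r of 0.74, 0.74 and 0.73, and of 0.64, 0.72 and 0.73 within groups.

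Igf2, on chromosome 7 from 142204503 to 142220694 on the minus strand, had the lowest counts of the 10 genes. It ranged from 52.8 to 120 normalized counts in dark mice (median 73.8), from 39.5 to 186 in light mice (median 59.1), from 39.1 to 133 in psilocybin-dark mice (median 86.7) and from 26.9 to 74.7 in psilocybin-light mice (median 44.1). All groups overlapped, and the single highest value was that of light mouse 18. The psilocybin-light mean was 0.545 times the psilocybin-dark mean, with a log2 fold change of -0.87 ± 0.35 and an edgeR adjusted p of 0.16 (two-sided exact permutation p = 0.041, not adjusted).

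The level of Igf2 followed transcripts of fibroblasts of the meninges and vessels, a known source of IGF2 in the brain. Over the 24 mice its r was 0.96 with Col1a1, a collagen chain, 0.92 with Slc22a6, an organic anion transporter, and 0.92 with Lamb2, a laminin chain, and within groups 0.95, 0.95 and 0.93. Col1a1 ran from 133 to 836 normalized counts, with its highest value also in light mouse 18. With the mean log2 level of 7 fibroblast markers as a covariate, Igf2 and Igfbp2 were called higher in the light and psilocybin-dark groups than in the dark group. Without the covariate neither gene was called. It includes Dcn, which neurons also express. The mean of Dcn was 2254 normalized counts in dark mice and 217, 282 and 235 in light, psilocybin-dark and psilocybin-light mice. Col1a1 had means of 353, 375, 425 and 255 in the same order. Against the dark group, 1 of the 7 markers was called lower in each of the other groups and 0 higher. The part of Dcn in the calls of Igf2 and Igfbp2 was not tested. The sums of the 7 markers overlapped between the dark group (2332 to 6214) and the other groups (893 to 4439). They also overlapped without Dcn (1228 to 2073 against 777 to 3973). The choroid plexus is another known source of IGF2. Light mouse 14, which had the highest sum of 8 choroid plexus markers (2357 normalized counts), had 55.7 normalized counts of Igf2, and the part of choroid plexus transcripts was not tested.

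Igf1r, on chromosome 7 from 67601518 to 67883416 on the plus strand, encodes the receptor through which both IGFs signal. It had 1079 to 1414 normalized counts in dark mice (median 1263), 1028 to 1676 in light mice (median 1359), 1190 to 1621 in psilocybin-dark mice (median 1396) and 919 to 1146 in psilocybin-light mice (median 994). All 6 psilocybin-light mice lay below all 6 psilocybin-dark mice, while they overlapped with the dark and light groups.

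In psilocybin-light mice, Igf1r fell by 28.3% from the psilocybin-dark mean, a log2 fold change of -0.48 ± 0.10 (edgeR adjusted p = 0.0065; two-sided exact permutation p = 0.0022, not adjusted, the smallest that 6 mice against 6 allow). Against the dark group it fell by 18.9%, a log2 fold change of -0.30 ± 0.10 with an adjusted p of 0.024. Against the light group the log2 fold change was -0.41 ± 0.10 with an adjusted p of 0.070, and this comparison was called without the 4 mice with cerebellar transcripts, at -0.46 and 0.0092. In the absence of light or of psilocybin the difference pointed the other way, with 0.11 ± 0.10 in the light group and 0.18 ± 0.10 in the psilocybin-dark group, both against the dark group and neither called. The interaction was -0.59 ± 0.15 with an adjusted p of 0.016. The call against the dark group was lost without dark mouse 5 (-0.26, adjusted p = 0.055), psilocybin-light mouse 20 (-0.28, 0.053) or psilocybin-light mouse 22 (-0.28, 0.053), and without dark mice 2 to 5 together it was -0.19 with an adjusted p of 0.31. With the hippocampal covariate the interaction was -0.28 with an adjusted p of 0.61, in a fit in which edgeR called the interaction of 0 of 14464 genes (1480 at an unadjusted p under 0.05). The difference between the psilocybin-light and psilocybin-dark groups, which compares no dark mice, was -0.51 in that fit and was called.

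Other measures moved with Igf1r. The sum of 7 astrocyte markers was 47634 to 53420 normalized counts in psilocybin-light mice and 59080 to 74959 in psilocybin-dark mice, without overlap. Of these markers, Gja1, a gap junction protein, and Slc1a2, the main glutamate transporter of astrocytes, were called lower, and none was called higher. Slc1a2, with means of 31312 and 44510, made up most of the sum. Aqp4, Gfap and Slc1a3 had lower means without a call. Aldh1l1 (1311 against 1231) and Gjb6 (1605 against 1550) had higher means in psilocybin-light mice. Igf1r had an r of 0.85 with this sum over the 24 mice and of 0.69 within groups. The mean log2 level of the 7 astrocyte markers, which weighs them equally unlike the sum, was used as a covariate, an alternative chosen after seeing the data. With it the log2 fold change of Igf1r between the psilocybin-light and psilocybin-dark groups was -0.54 with an edgeR adjusted p of 0.010. In the same fit the call against the dark group was lost, at -0.39 with an adjusted p of 0.059.

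Exon length, counted as all bases of a gene annotated as exon in any of its transcripts, moved with the comparison as well. Igf1r, with 19768 bases of exon, belongs to the 10% of tested genes with the longest exons in all, 12853 bases or more, and 11.0% of these 1443 genes were called lower in psilocybin-light than in psilocybin-dark mice, against 3.00% of the 12984 other genes. The median log2 fold change was -0.09 in the former and 0.00 in the latter. The share of counts from mitochondrial genes was 3.45% to 4.96% in psilocybin-light mice and 2.97% to 3.51% in psilocybin-dark mice. The part of length and of mitochondrial counts in the fall of Igf1r was not tested. The genes most like Igf1r over the 24 libraries were Mib1, a ubiquitin ligase of the Notch pathway, Marf1 and Gatad2b, with r of 0.89 each and of 0.87, 0.81 and 0.86 within groups.

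**Figure D2:**
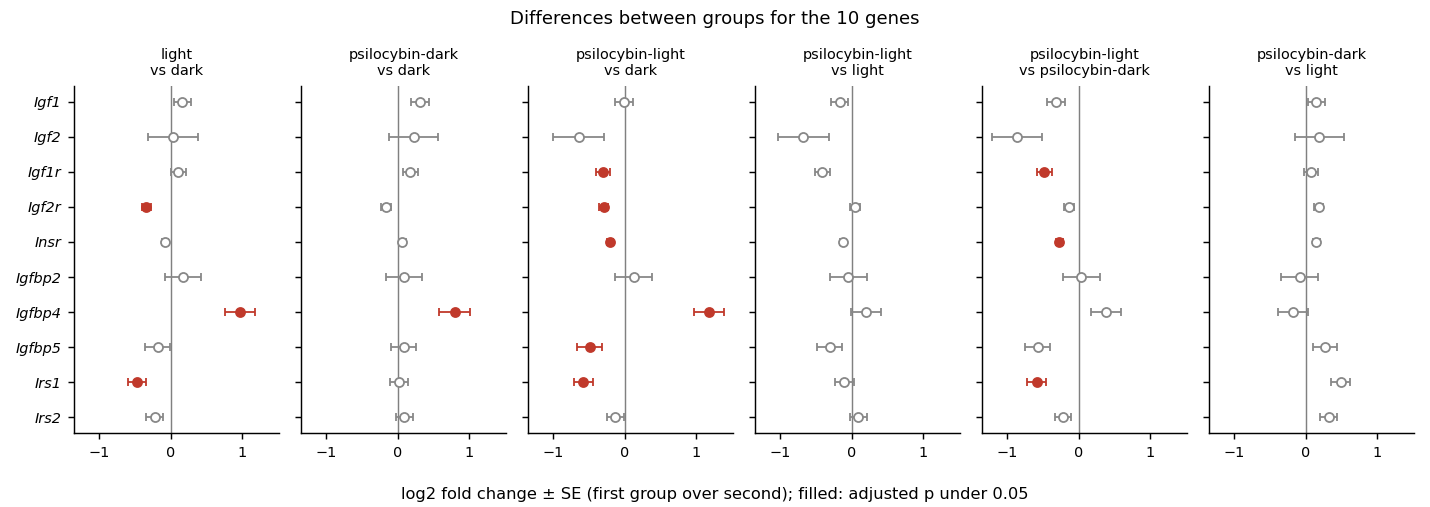
Log2 fold change (horizontal axis, ± SE) of the 10 genes in each of the 6 comparisons of 2 groups, 6 mice per group, with filled points where the edgeR adjusted p was under 0.05. Igfbp4 lay to the right of 0 in all 3 comparisons with the dark group, and Igf1r, Insr and Irs1 lay to the left of 0 in psilocybin-light against psilocybin-dark mice.

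Insr, on chromosome 8 from 3172061 to 3329647 on the minus strand, encodes the insulin receptor, and its log2 fold changes had the smallest standard errors of the 10 genes. It had 735 to 851 normalized counts in dark mice (median 794), 691 to 824 in light mice (median 743), 795 to 854 in psilocybin-dark mice (median 833) and 662 to 702 in psilocybin-light mice (median 692). The psilocybin-light range lay wholly below those of both PBS and psilocybin mice kept in darkness and overlapped with that of the light group.

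Insr fell in psilocybin-light mice by 17.2% from the psilocybin-dark mean (log2 fold change -0.27 ± 0.04, edgeR adjusted p = 0.0013) and fell by 13.3% from the dark mean (log2 fold change -0.21 ± 0.04, adjusted p = 0.0010). Both calls held in every alternative fit run, the marker covariates and the 4 mice left out included. Neither light nor psilocybin alone gave a call, with -0.08 ± 0.04 and 0.07 ± 0.04 against the dark group, and the interaction of -0.19 ± 0.06 had an adjusted p of 0.062. Without the 4 mice the interaction was called, at -0.19 and 0.028. With 13776 bases of exon, Insr also belongs to the 10% of tested genes with the most bases of exon. Over the 24 mice its r was 0.79 with Igf1r and 0.77 with Irs1.

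Igf2r, on chromosome 17 from 12901293 to 12988614 on the minus strand, encodes the receptor that clears IGF2 and sorts lysosomal enzymes. It had 768 to 860 normalized counts in dark mice (median 798), 586 to 703 in light mice (median 618), 613 to 824 in psilocybin-dark mice (median 739) and 606 to 755 in psilocybin-light mice (median 648). Neither of the light-exposed groups overlapped with the dark group, whereas psilocybin-dark mice did.

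Igf2r fell by 20.9% in the light group (log2 fold change -0.34 ± 0.07, edgeR adjusted p = 0.00058) and fell by 18.5% in the psilocybin-light group (log2 fold change -0.29 ± 0.07, adjusted p = 0.0014). In the psilocybin-dark group the log2 fold change was -0.16 ± 0.07, with an adjusted p of 0.085, and without the 4 mice it was called at -0.19 and 0.033. The call in the light group held in every alternative fit run, and that in the psilocybin-light group was lost with the hippocampal covariate (-0.34, adjusted p = 0.079) and with the astrocyte covariate (-0.21, adjusted p = 0.12). The transcript of Airn, an antisense gene that overlaps Igf2r, had a mean of 18.2 normalized counts, and the counting was not stated to use strand. Without strand, Airn reads inside Igf2r exons could count for Igf2r, so this value does not bound their part, which was not tested.

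Of all genes tested, 10.0% had no overlap between the light and dark groups, as did Igf2r alone of the 10. Between the psilocybin-dark and dark groups 5.58% of genes did not overlap, and none of the 10. Between the psilocybin-light and dark groups 15.8% of genes did not overlap, and 4 of the 10, Igf2r, Insr, Igfbp4 and Irs1. Between the psilocybin-light and psilocybin-dark groups it was 6.42% of genes and 3 of the 10, Igf1r, Insr and Irs1.

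Igfbp4, on chromosome 11 from 98932064 to 98945218 on the plus strand, encodes a binding protein that sequesters IGFs and is cut by PAPPA. It changed more than any other of the 10 genes. It had 484 to 1256 normalized counts in dark mice (median 904), 1209 to 2053 in light mice (median 1900), 869 to 2085 in psilocybin-dark mice (median 1567) and 1794 to 2400 in psilocybin-light mice (median 1980). The psilocybin-light mice all lay above the dark mice, while the lowest light mouse and the lowest psilocybin-dark mouse reached into the dark range.

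Against the dark group, the log2 fold change of Igfbp4 was 0.97 ± 0.21 in the light group (edgeR adjusted p = 0.0013), 0.79 ± 0.21 in the psilocybin-dark group (adjusted p = 0.0083) and 1.18 ± 0.21 in the psilocybin-light group (adjusted p = 0.00017). The 3 groups other than dark did not differ from one another by this test, with log2 fold changes between -0.18 and 0.38.

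Igfbp4 was low in the 4 mice with cerebellar transcripts, at 643 and 484 in dark mice 1 and 6, 869 in psilocybin-dark mouse 12 and 1209 in light mouse 18. Its r with the cerebellar sum was -0.84 over all mice and -0.89 within groups. Without those 4 mice the 3 differences were 0.81, 0.66 and 0.93 on the log2 scale and were all called, so they are smaller but not lost. Dark mice 1 and 6 also had the lowest sums of 6 markers of cortical excitatory neurons, with 12523 in mouse 1, against 29032 to 40039 in the groups other than dark. With the hippocampal covariate the 3 differences of Igfbp4 were 0.78, 0.59 and 0.96, with adjusted p of 0.26, 0.67 and 0.18. Fitted on the compared groups alone, the difference of the psilocybin-dark group was 0.79 with an adjusted p of 0.062.

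To place the counts on the genome, the bases upstream of a pair of genes called in opposite directions in the light group are printed, both from RefSeq's promoter table (GRCm38.p6) and matched at a single place in GRCm39. They end at the start of the gene in GENCODE, which lies 21 bases upstream of the RefSeq start for Igf2r and 6 for Igfbp4, and read 5′ to 3′ on the strand of the gene, from 12988615 to 12988843 of chromosome 17, minus strand, for Igf2r and from 98931820 to 98932063 of chromosome 11, plus strand, for Igfbp4. Capitals mark a CACGTG E-box, the letters bound by basic helix-loop-helix factors such as the clock proteins and MYC. The 250 bases before the RefSeq start of Igf2r hold 2 of these. Of them 1 is printed, and the other lies in the 21 bases left out.

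Igf2r: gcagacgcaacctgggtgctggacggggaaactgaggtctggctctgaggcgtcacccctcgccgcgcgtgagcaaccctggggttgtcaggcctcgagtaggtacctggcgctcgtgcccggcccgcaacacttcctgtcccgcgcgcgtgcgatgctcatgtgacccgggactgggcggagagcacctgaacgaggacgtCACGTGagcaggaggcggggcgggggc

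Igfbp4: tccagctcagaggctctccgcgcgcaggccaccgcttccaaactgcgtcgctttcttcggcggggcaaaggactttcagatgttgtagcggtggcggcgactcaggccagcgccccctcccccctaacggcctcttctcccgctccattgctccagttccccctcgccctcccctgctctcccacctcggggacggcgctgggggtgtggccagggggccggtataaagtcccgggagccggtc

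Both stretches are rich in G and C, with 69.4% in Igf2r and 68.4% in Igfbp4, beside a median of 52.4% over the 250 bases before the start in all 32851 promoters of the table. They hold 24 and 21 CG dinucleotides. Of 5 motifs searched on both strands of these 250 bases, the 13 entries found for 9 of the 10 genes held no cAMP response element (TGACGTCA, in 1.55% of all promoters), no EGR site (GCGTGGGCG, in 0.536%) and no FOXO site (GTAAACA, in 3.17%). An AP-1 site (TGANTCA, in 6.75% of all promoters) was found in Igf1 and Igfbp2, and the E-box (in 6.02%) in Igf2r, Igfbp2, Irs1 and Irs2. No entry for Insr was matched.

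Igfbp5, on chromosome 1 from 72897091 to 72914043 on the minus strand, had the highest counts of the 10 genes. It had 2234 to 5683 normalized counts in dark mice (median 3578), 3019 to 4071 in light mice (median 3174), 3199 to 5138 in psilocybin-dark mice (median 3674) and 2008 to 3347 in psilocybin-light mice (median 2674). All groups overlapped, with the psilocybin-light mice at the low end.

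Igfbp5 fell by 28.8% in the psilocybin-light group against the dark group (log2 fold change -0.49 ± 0.17, edgeR adjusted p = 0.030), and this call was lost in 6 of 11 alternatives and without any of 5 single mice. Without dark mouse 6, which had the highest value, it was -0.32 with an adjusted p of 0.11, and without the 4 mice with cerebellar transcripts it was -0.33 with an adjusted p of 0.099. With the astrocyte covariate it was -0.03 with an adjusted p of 0.95, with the fibroblast covariate -0.29 with 0.21, with the hippocampal covariate -0.65 with 0.16, and fitted on the compared groups alone -0.49 with 0.084. Leaving out dark mouse 3 or psilocybin-light mouse 19, 20 or 24 also lost the call. Against the psilocybin-dark group the log2 fold change was -0.57 ± 0.17 with an adjusted p of 0.051, and without the 4 mice it was called, at -0.50 and 0.029.

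Igfbp2 lies beside Igfbp5 on chromosome 1, from 72863606 to 72891634 on the plus strand. It had 513 to 635 normalized counts in dark mice (median 564), 404 to 1327 in light mice (median 517), 401 to 812 in psilocybin-dark mice (median 572) and 360 to 957 in psilocybin-light mice (median 563). The dark mice were close together, and each of the other groups spread around them. No log2 fold change of Igfbp2 exceeded 0.17 in size, with a standard error of 0.26, and adjusted p were 0.65 or more. Igfbp2 had an r of 0.73 with Igf2 over the 24 mice and of 0.85 within groups, and both were highest in light mouse 18, whose fibroblast sum (4439) was the highest outside the dark group.

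**Figure D3:**
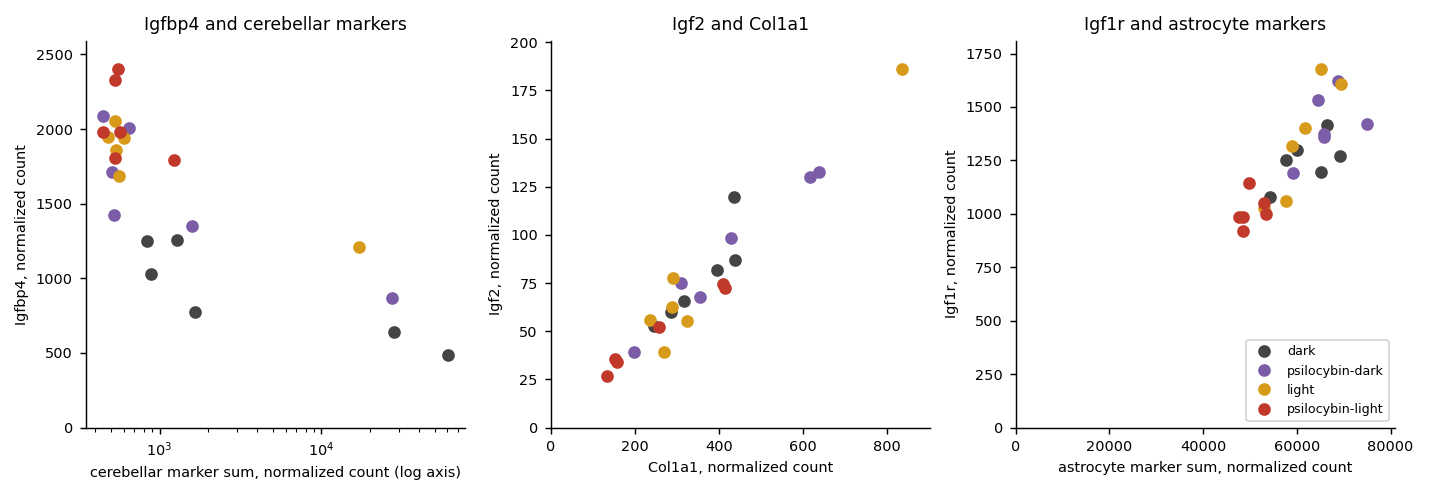
Normalized counts of Igfbp4 against the sum of 6 cerebellar markers (log axis), of Igf2 against Col1a1, and of Igf1r against the sum of 7 astrocyte markers, 1 point per mouse, coloured by group. Igfbp4 was at or below 1209 in the 4 mice farthest to the right, Igf2 was high where Col1a1 was high, and the psilocybin-light mice lay at the low end of both axes of the right panel.

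Irs1, on chromosome 1 from 82210822 to 82269338 on the minus strand, encodes a docking protein of the activated receptors. It had 164 to 302 normalized counts in dark mice (median 191), 128 to 188 in light mice (median 153), 183 to 229 in psilocybin-dark mice (median 220) and 114 to 155 in psilocybin-light mice (median 145). The psilocybin-light mice all lay below both groups kept in darkness, and the light mice overlapped with both groups kept in darkness.

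Irs1 fell by 33.0% in the psilocybin-light group against the dark group (log2 fold change -0.58 ± 0.13, edgeR adjusted p = 0.0012) and fell by 33.6% against the psilocybin-dark group (log2 fold change -0.59 ± 0.13, adjusted p = 0.0075). It fell by 27.8% in the light group against the dark group (log2 fold change -0.47 ± 0.13, adjusted p = 0.0071). In the psilocybin-dark group it was 0.01 ± 0.13 against the dark group, and against the light group it was 0.49 ± 0.13 with an adjusted p of 0.070. The interaction of Irs1 was -0.12 ± 0.18 with an adjusted p of 0.75.

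Dark mice 1 and 6 had the highest Irs1 values, 250 and 302. Without these 2 mice the difference between light and dark mice was -0.23 with an adjusted p of 0.081. Without the 4 mice with cerebellar transcripts it was -0.22 with an adjusted p of 0.11, and fitted on the compared groups alone -0.48 with an adjusted p of 0.051. The differences of the psilocybin-light group were -0.33 from dark and -0.57 from psilocybin-dark mice without those 4 mice and were called. With the astrocyte covariate they were -0.38 and -0.46, with adjusted p of 0.14 and 0.066.

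Irs2, on chromosome 8 from 11034681 to 11059499 on the minus strand, encodes another docking protein, and its transcript was more abundant than that of Irs1. It had 1789 to 2535 normalized counts in dark mice (median 2138), 1608 to 2090 in light mice (median 1794), 1677 to 2711 in psilocybin-dark mice (median 2305) and 1591 to 2534 in psilocybin-light mice (median 1917). All groups overlapped, and the light-exposed groups had the lower medians. Its log2 fold changes in the light and psilocybin-light groups against the dark group were -0.22 ± 0.12 (edgeR adjusted p = 0.15) and -0.13 ± 0.12 (adjusted p = 0.40). Without the 4 mice the light group was called lower, at -0.36 and 0.012. The genes most like Irs2 were Ipmk, an inositol phosphate kinase, Fosl2, an AP-1 subunit, and Zbtb21, with r of 0.84, 0.83 and 0.82 over the 24 libraries and of 0.88, 0.82 and 0.76 within groups.

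Of 59 further genes of the pathway, 52 passed the filter. Ins1, a gene for insulin, had no count in any library, which allows up to 3 counts over all of them, or 0.00777 CPM, and Ins2, Insrr, Igfbp1, Igfbpl1, Igfals and Irs3 were too low to test, with 9 to 213 counts in all. Against the dark group, 23 of the 52 were called in the light group (11 higher, 12 lower), 19 in the psilocybin-dark group (12 higher, 7 lower) and 29 in the psilocybin-light group (14 higher, 15 lower), where 31.9%, 24.7% and 38.4% of all genes were called. Their median log2 fold changes, -0.04, 0.03 and -0.03, lay near those of all genes, -0.01, -0.02 and -0.02. With the hippocampal covariate, edgeR called 739, 0 and 959 of 14464 genes in these comparisons. The 19 calls in the psilocybin-dark group were thus all lost with it, and its values for single pathway genes are not given here.

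Among the other extracellular genes, of which 9 were tested, Igfbp6, a binding protein that prefers IGF2, rose in all 3 groups, with log2 fold changes of 1.68 ± 0.20, 1.44 ± 0.20 and 1.85 ± 0.20 in the light, psilocybin-dark and psilocybin-light groups against the dark group. Pappa2, the protease, was lower by the same test in all 3 groups (-3.59 ± 0.50, -2.47 ± 0.46 and -3.37 ± 0.50). Its means were low there, at 9.23, 20.2 and 10.7 normalized counts, against 112 ± 70.1 (SD) in the dark group. At the receptor, where 16 genes were tested, Irs4 was lower in all 3 groups (-3.78 ± 0.53, -3.39 ± 0.51 and -3.62 ± 0.52). Irs4 had means of only 5.33, 6.87 and 5.93 normalized counts in these groups, against 74.2 ± 57.7 (SD) in the dark group. The size of its fold changes thus rests on few counts outside the dark group and on widely spread counts within it. The adaptor Grb10, which inhibits both receptors, was lower in all 3 (-0.77 ± 0.13, -0.71 ± 0.13 and -0.92 ± 0.13), as was Sos1, an activator of RAS (-0.41 ± 0.06, -0.27 ± 0.06 and -0.43 ± 0.06). Rack1, a scaffold protein, rose in the light (0.20 ± 0.04) and psilocybin-light groups (0.24 ± 0.04) and had a log2 fold change of 0.07 ± 0.04 in the psilocybin-dark group (edgeR adjusted p = 0.24). The dark mice stand apart in hippocampal transcripts, and the part of these in the falls of Pappa2 and Irs4 was not tested.

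Downstream, among 27 genes of PI3 kinase, AKT and mTOR signalling, Foxo1, a transcription factor that AKT inhibits, fell in all 3 groups, by 0.93 ± 0.12, 0.74 ± 0.12 and 1.11 ± 0.12 on the log2 scale. Gsk3a, a kinase inhibited by AKT, rose in all 3 (0.26 ± 0.05, 0.20 ± 0.05 and 0.32 ± 0.05), as did Pik3r1, a regulatory subunit of PI3 kinase (0.50 ± 0.10, 0.51 ± 0.10 and 0.47 ± 0.10). Akt2 rose in the light (0.32 ± 0.09) and psilocybin-dark groups (0.37 ± 0.09) and had a log2 fold change of 0.22 ± 0.09 in the psilocybin-light group (edgeR adjusted p = 0.052).

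Between the psilocybin-light and psilocybin-dark groups 6 of the 52 were called, where 6.38% of all genes were. Gsk3b (-0.50 ± 0.08), Shc3, an adaptor of neurons (-0.81 ± 0.20), Pdpk1, the kinase that activates AKT (-0.23 ± 0.06), and Sos2 (-0.16 ± 0.05) were lower, and Rack1 (0.18 ± 0.04) and Akt1 (0.13 ± 0.04) were higher. None of the 52 was called by edgeR between the psilocybin-light and light groups, where 5 had an unadjusted p under 0.05 and DESeq2 called 0. None was called by edgeR between the psilocybin-dark and light groups either, where 13 had an unadjusted p under 0.05 and DESeq2 called 2, Rack1 and Mtor. The interaction was called for 9 of them and for 8.75% of all genes. Of the 6 above 0, Irs4 (3.55 ± 0.82), Pappa2 (2.68 ± 0.73) and Mtor (0.24 ± 0.07) had the smallest adjusted p. Irs4 and Pappa2 had few counts in the 3 groups other than dark, as given above, so their interactions rest on the high dark means. The 3 below 0 were Igfbp6 (-1.27 ± 0.28), Akt2 (-0.48 ± 0.12) and Pik3r1 (-0.53 ± 0.14). With the hippocampal covariate edgeR called the interaction of 0 of 14464 genes, so these 9 calls were lost.

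**Figure D4:**
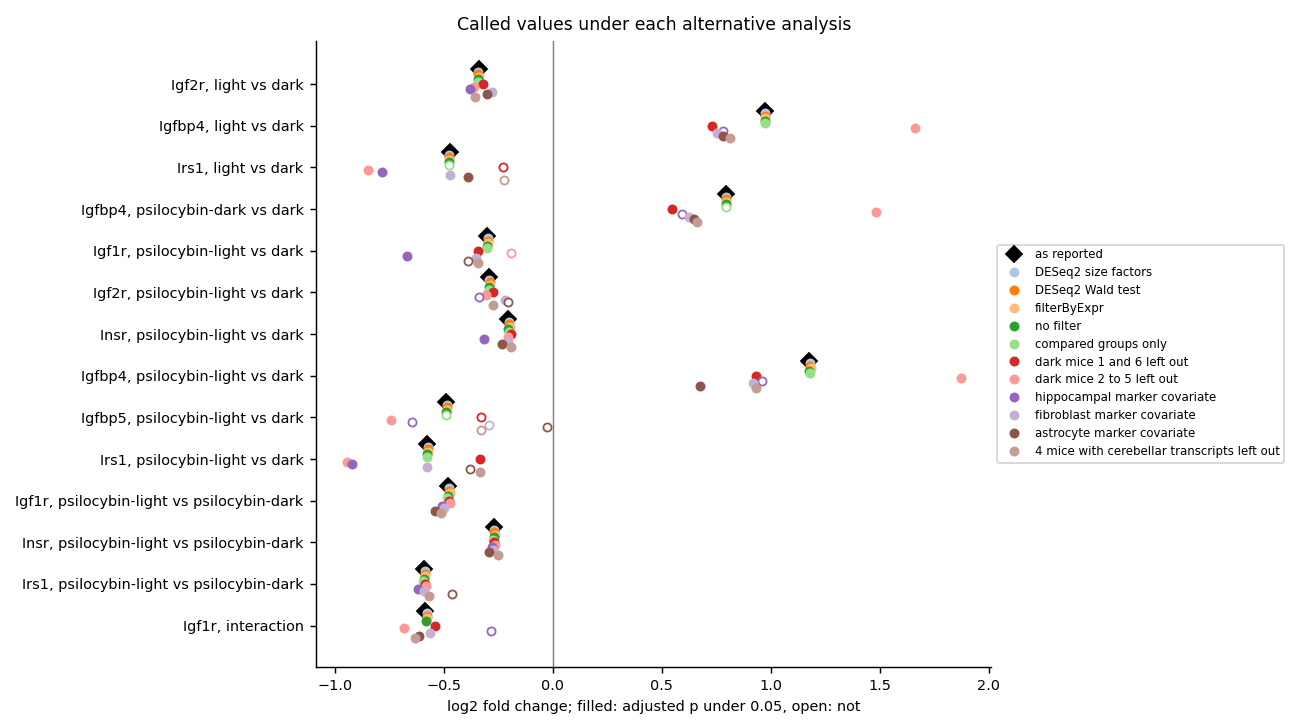
Log2 fold change (horizontal axis) of each of the 14 values called, as reported (diamonds) and under 11 alternative analyses (circles, 10 for the interaction), filled where the adjusted p was under 0.05. No value changed its sign, the Insr calls held in all alternatives shown, and the hippocampal covariate gave open points for Igfbp4 in all 3 comparisons with the dark group.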

How the data were processed

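The deposited values are raw read counts, which the authors made from poly-A selected libraries with cutadapt, STAR and htseq-count (submitters' processing notes). The paper names GRCm39 and the notes name mm10; positions here are GRCm39 (GENCODE vM39), and annotation release and strand setting are not given in the sources used here.

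The 14464 genes that reached 30 counts in some library were tested with edgeR 4.0.16 in R 4.3.3: TMM, a quasi-likelihood fit over all 24 mice with 1 term per group, and Benjamini-Hochberg adjustment with a threshold of 0.05. Normalized counts are scaled to the mean effective library size (16058300). It was first tested on simulated counts in which 200 genes differed. For 1 gene at a time, mean normalized counts were compared by a two-sided exact permutation test. Members and lists were chosen with earlier results of these data known. All members are named. Further pathway genes are named if without a count, or as the up to 3 per direction with the smallest adjusted p in a comparison; those of 5 or fewer are all named, Sos2 included, after their values were seen. Similar genes are the 3 with the highest r among genes with a mean of at least 50. Alternatives were DESeq2 1.42.0 (size factors, Wald test), other filters, compared groups only, mice left out, marker covariates, an adjusted p under 0.01 and the labels' exposure. That each library is a separate mouse follows the study's account; p-values cover the spread between these libraries. Figures were drawn with matplotlib 3.10.9.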

Additional observations from a re-analysis of the deposited data

Results flagged for a closer look

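The 10 genes were screened in each group of 6 for 1 mouse at a distance from the rest (Dixon's test at the 95% level, which flags about 1 in 20 groups by chance). Of 40 sets of values, 5 were flagged. In light mouse 18, Igf2 had 186 normalized counts (next mouse 77.5), Igfbp2 1327 (next 584) and Igfbp5 4071 (next 3312). This mouse also had a fibroblast marker sum of 4439 and a cerebellar marker sum of 17020. Irs1 had 183 normalized counts in psilocybin-dark mouse 8 (next 213) and 114 in psilocybin-light mouse 22 (next 140).

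The effect of psilocybin on Igf1r differed between light and darkness by the interaction term, by -0.59 on the log2 scale.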

How the results depend on the processing

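Of 14 called values, 12 stayed called in each of 24 fits without 1 mouse, and 4 in each of 11 other alternatives (10 for the interaction); none changed sign, the labels' exposure, which exchanges groups, aside. The number of the 10 genes called was 3 for light against dark (5 with the fibroblast covariate, 2 with the hippocampal covariate or the compared groups only; 3 to 3 without 1 mouse). For psilocybin-dark against dark it was 1 (2 without dark mice 2 to 5 or the 4 mice with cerebellar transcripts, 3 with the fibroblast covariate, 0 with the hippocampal covariate, with the compared groups only or under the labels' exposure; 1 to 3 without 1 mouse). For psilocybin-light against dark it was 6 (3 with the hippocampal or astrocyte covariate, 0 under the labels, and 4 to 6 without 1 mouse). It was 5 with the compared groups only, without dark mice 1 and 6, without dark mice 2 to 5 or without the 4 mice. At an adjusted p under 0.01 it was 4. For psilocybin-light against light it was 0 (1 with DESeq2's Wald test, without dark mice 1 and 6, without the 4 mice, with the hippocampal covariate or under the labels; 0 to 1). For psilocybin-light against psilocybin-dark it was 3 (2 with the astrocyte covariate, 3 to 4 in the others; 3 to 4 without 1 mouse). For psilocybin-dark against light it was 0 (2 with DESeq2, without dark mice 1 and 6 or without the 4 mice, 1 with the compared groups only, without dark mice 2 to 5 or with the astrocyte covariate, 6 under the labels; 0 to 1). For the interaction it was 1 (2 without dark mice 1 and 6, without dark mice 2 to 5 or with the fibroblast or astrocyte covariate, 5 without the 4 mice, 0 with the hippocampal covariate or an adjusted p under 0.01; 1 to 3). Leaving out the 4 mice and the astrocyte covariate were chosen after seeing the data; the causes of these shifts were not tested. No paired analysis was possible because the library numbers are not shared between groups. Relative counting error is largest for Igf2, with as few as 25 raw counts in a mouse.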
